A study of Mus musculus with 2 samples.

Results

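The 9 genes Piezo1, Klf2, Klf4, Foxc1, Foxc2, Nfatc1, Nfatc2, Foxo1 and Foxp1 encode a mechanosensitive channel and the KLF, forkhead and NFAT transcription factors that act in lymphatic valve formation. They were chosen by symbol from the 24319 rows that each deposited list of genes holds, and all 9 were found once in both lists. RNA was sequenced from lymphatic endothelial cells (LECs) of the skin of C57BL/6 mouse embryos at E15.5 (embryonic day), in 1 library labelled Dot1l knockout and 1 library labelled wild type. Dot1l encodes a histone H3 lysine methyltransferase, and the comparison asks how its endothelial loss bears on gene expression in these cells. The protocol text writes the knockout as Dot1lΔEC, a deletion in endothelial cells, and pools RNA from 2 to 3 biological replicates per library. The sources used here do not give the driver of that deletion, the exons removed or the means by which LECs were purified. The same labels carry a culture protocol for primary dermal LECs, and whether the sequenced cells were cultured is not stated.

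Lymphatic valves form where lymph flow changes direction or is disturbed. Flow opens the cation channel PIEZO1 and, through calcium, the phosphatase calcineurin, which lets NFAT factors enter the nucleus, where NFATc1 acts with FOXC2 in valve-forming cells. KLF2 and KLF4 are induced in endothelium by shear stress through the MEKK3, MEK5 and ERK5 kinases and MEF2 factors. FOXO1, held out of the nucleus by AKT, restrains valve growth, in part by repressing valve genes, and FOXP1 is a forkhead repressor that is also expressed in endothelium and in many blood cells.

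Values are FPKM (fragments per kilobase and per 1000000 mapped fragments), which correct for transcript length, so that levels of different genes can be set side by side. With 1 library per genotype no test was possible, and no difference could be checked against replicates. Differences are given as log2(FPKM + 1) in the library labelled knockout minus that in the wild-type library, a scale that understates the change of low genes, and a gene is called higher or lower when this difference reaches 2-fold. The depth was not stated, and the steps between low values put it at about 9080000 fragments in the library labelled knockout and 10200000 in the wild-type library, if the values were not rescaled. Dot1l itself was 10.4 FPKM in the library labelled knockout and 5.86 FPKM in the wild-type library, a value over the whole gene that cannot check the deletion, so the library is called by its label throughout. The make-up of the libraries differed. Of 18 pan-endothelial markers 16 were lower, with summed levels of 373 FPKM in the library labelled knockout and 1618 FPKM in the wild-type library. Of 9 measured lymphatic markers 8 were lower, with Prox1 at 13.1 and 59.3 FPKM in the same order, although Lyve1 was 552 and 526 FPKM. All 12 macrophage markers were higher (sums of 3028 and 43.0 FPKM, with C1qc listed at 0 in wild type), as were all 8 mast cell markers (12933 and 104 FPKM, with Fcer1a listed at 0 in wild type). Fibroblast markers were lower in 7 of 8 (946 and 3999 FPKM), pericyte and smooth muscle markers in 8 of 8 (28.1 and 181 FPKM) and keratinocyte markers in 5 of 8 (82.7 and 184 FPKM). Blood endothelial markers were lower in 6 of 8 (125 and 348 FPKM). Of 6 neutrophil markers 5 had a row (sums of 310 and 6.65 FPKM) and 3 reached 1 FPKM. Of these 3, S100a8 (104 and 3.98 FPKM) and S100a9 (205 and 1.63 FPKM) were higher. Elane was listed at 0 in both libraries, and Camp at 0 in the library labelled knockout and 0.257 FPKM in wild type.

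The upstream sequences of Klf2 and Klf4, the shear stress factors, of Foxc1, the lower FOXC gene with an entry, and of Nfatc2, the only member that was higher, are shown. Klf2 lay within 2-fold, and Foxc2, the member with the largest difference, had no entry in the promoter table. Each is the 250 bases before the annotated start in RefSeq on build GRCm38.p6, which is not the mm9 build of the deposited values, and is read 5′ to 3′ along the gene. Capitals mark the forkhead core TGTTT, the NFAT core GGAAA, the KLF core CACCC, each on either strand, and the MEF2 site. The windows lie at chr8:72318812-72319061 on the plus strand for Klf2, at chr4:55532476-55532725 on the minus strand for Klf4, at chr13:31806396-31806645 on the plus strand for Foxc1 and at chr2:168601658-168601907 on the minus strand for Nfatc2.
Klf2: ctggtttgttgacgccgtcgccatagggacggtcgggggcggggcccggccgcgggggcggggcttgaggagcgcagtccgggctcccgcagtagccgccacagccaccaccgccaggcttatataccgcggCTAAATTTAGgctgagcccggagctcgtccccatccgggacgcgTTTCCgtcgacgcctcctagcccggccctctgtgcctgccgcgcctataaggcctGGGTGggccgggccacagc
Klf4: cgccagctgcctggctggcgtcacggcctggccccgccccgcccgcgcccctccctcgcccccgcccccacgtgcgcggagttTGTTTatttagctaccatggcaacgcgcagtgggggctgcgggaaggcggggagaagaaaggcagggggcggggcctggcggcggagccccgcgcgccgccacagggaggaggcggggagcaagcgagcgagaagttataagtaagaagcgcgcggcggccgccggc
Foxc1: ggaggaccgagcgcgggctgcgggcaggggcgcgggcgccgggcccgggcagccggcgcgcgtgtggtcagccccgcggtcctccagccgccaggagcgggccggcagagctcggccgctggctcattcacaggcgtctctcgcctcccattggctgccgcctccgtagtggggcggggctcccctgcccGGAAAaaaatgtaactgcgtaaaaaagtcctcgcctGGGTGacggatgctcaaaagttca
Nfatc2: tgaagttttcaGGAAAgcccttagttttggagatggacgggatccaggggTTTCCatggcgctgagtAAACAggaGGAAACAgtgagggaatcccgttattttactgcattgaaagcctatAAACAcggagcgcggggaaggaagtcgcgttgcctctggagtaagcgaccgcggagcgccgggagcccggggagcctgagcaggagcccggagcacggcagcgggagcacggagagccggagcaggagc

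The Klf2 window held a MEF2 site from 118 to 109 bases before the start, a match that 2.92% of 32851 RefSeq promoter windows of the same length had. It also held 1 NFAT core and 1 KLF core, and none of the forkhead cores. The Klf4 window held 1 forkhead core, 167 to 163 bases before the start, and none of the other 3 marked motifs. Foxc1 had 1 NFAT core and 1 KLF core. The first of the Nfatc2 windows, 1 of 2 listed for the gene, held 3 forkhead cores and 3 NFAT cores, of which 1 NFAT core overlaps 1 forkhead core. These short cores are common, with a forkhead core in 46.4%, an NFAT core in 55.6% and a KLF core in 52.0% of all windows, so a match describes the letters and not a bound site. Of the 9 genes, 7 were matched in the promoter table.

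Among the 9 genes the FOXC pair and Klf4 were lower in the library labelled knockout, Nfatc2 was higher, and Piezo1, Klf2, Nfatc1, Foxo1 and Foxp1 lay within 2-fold. Thus 4 of 9 were past 2-fold, beside 32.3% of all 13296 genes that reached 1 FPKM in a library. The 4 split into 3 lower and 1 higher, and the genes as a whole into 2060 lower and 2231 higher, of which the higher ones made up 16.8% of all. All 9 members passed that minimum. Of the 9, 8 had a value below that of the wild-type library, and the median log2 difference was -0.71, beside a median of 0.00 over all genes with quartiles of -0.62 and 0.63. When both libraries were scaled to the same total of 1000000, the median of all genes moved to -0.33, the share of genes called lower to 25% and the share called higher to 14.3%. Klf2 and Foxo1 then joined the lower genes at -1.07 and -1.15. In bulk RNA, fewer cells of a type and less RNA per cell cannot be told apart.

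**Figure D1:**
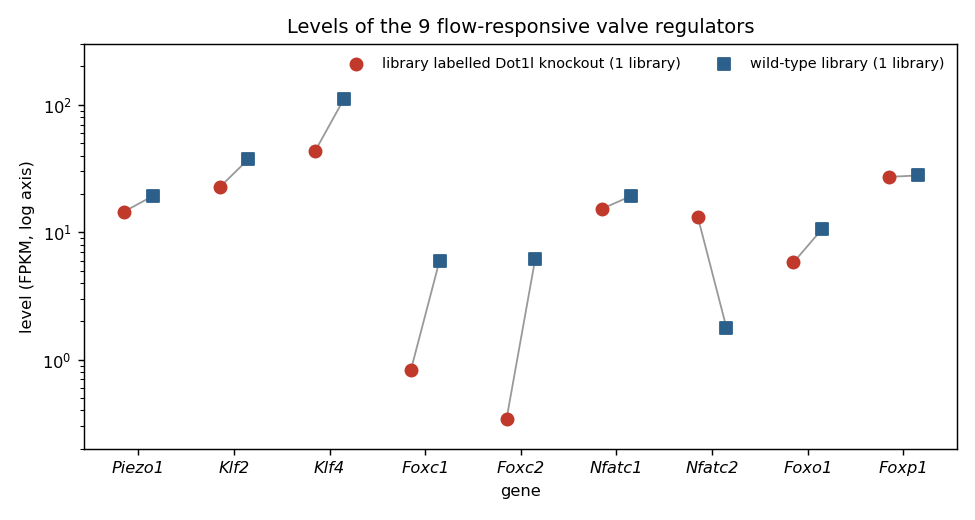
Level of each valve regulator in FPKM (log axis) in the library labelled Dot1l knockout (red circle) and the wild-type library (blue square), 1 library each, with a line joining both values of a gene. The FOXC genes drop below 1 FPKM in the library labelled knockout, and Nfatc2 alone is higher there.

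In the library labelled knockout the order of levels, high to low, was Klf4, Foxp1, Klf2, Nfatc1, Piezo1, Nfatc2, Foxo1, Foxc1 and Foxc2. In the wild-type library it was Klf4, Klf2, Foxp1, then Piezo1 and Nfatc1 (both 19.2 FPKM), Foxo1, Foxc2, Foxc1 and Nfatc2. Klf4 led both, and Nfatc2 moved past the FOXC genes and Foxo1. With no replicates it is not known which neighbours in these orders differ beyond their spread.

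**Figure D2:**
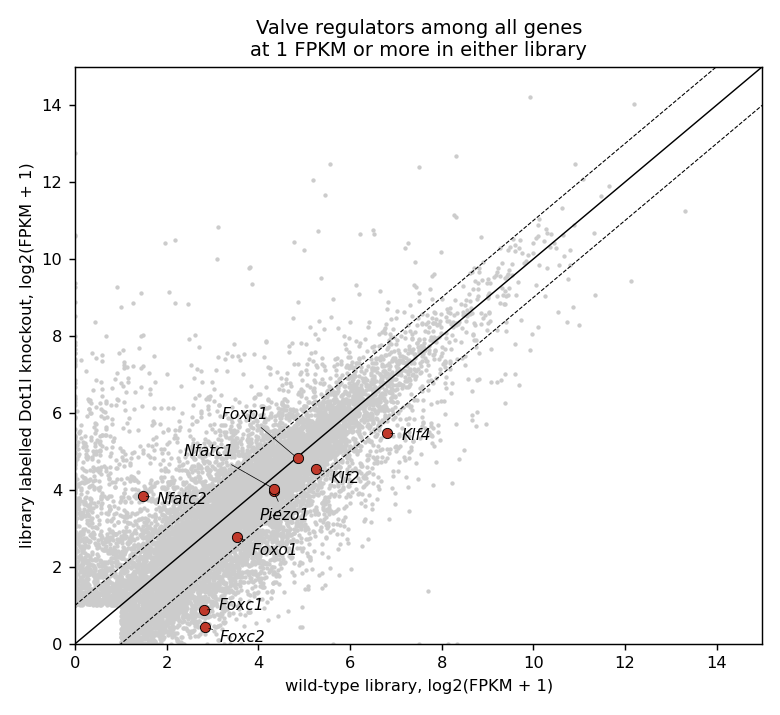
Level of every gene that reached 1 FPKM in a library (grey) as log2(FPKM + 1) in the library labelled Dot1l knockout (y axis) and the wild-type library (x axis), with the valve regulators in red. The solid line marks equal values and the dashed lines 2-fold differences; Foxc1, Foxc2 and Klf4 lie below the band and Nfatc2 above it.

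The flow sensor came first in the pathway. Piezo1 was 14.5 FPKM in the library labelled knockout and 19.2 FPKM in the wild-type library, 1.32-fold lower and a log2 difference of -0.38. That level was higher than 60.4% of the genes in the library labelled knockout and 70.6% of those in the wild-type library. Its relative Piezo2, best known from sensory neurons and Merkel cells, was 7.69 FPKM in the library labelled knockout and 29.0 FPKM in the wild-type library. The ratio of Piezo1 to Piezo2 was thus 1.89 in the library labelled knockout and 0.663 in the wild-type library. In a list of 16 other flow sensors and channels, 7 were lower and 3 higher, beside 2060 lower and 2231 higher of all 13296 genes. The median difference of the list was -0.83. At equal totals 9 of the 16 were lower and 3 higher (median -1.21), beside 3330 and 1900 of all genes. The lower ones included the junctional mechanosensory complex of Pecam1 (49.2 and 218 FPKM, library labelled knockout first), Cdh5 (34.4 and 227 FPKM), Kdr (29.7 and 188 FPKM) and Flt4 (14.1 and 71.9 FPKM), which are endothelial markers as well. The 3 higher ones were Sdc4, a heparan sulphate proteoglycan of the cell surface, at 231 FPKM in the library labelled knockout and 17 FPKM in wild type, Trpv2 at 12.1 and 1.14 FPKM, and Trpv4 at 5.42 and 0.637 FPKM. Trpv2 is also expressed by macrophages and mast cells, whose markers were higher in the same library, and their part in these values was not tested.

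The shear stress factors differed from each other in size. Klf4 was the highest member in both libraries, with 43.5 FPKM in the library labelled knockout and 111 FPKM in wild type, 2.56-fold lower and a log2 difference of -1.34. Klf2 was 22.5 FPKM in the library labelled knockout and 37.4 FPKM in wild type, 1.66-fold lower and a log2 difference of -0.71. Klf4 was 1.94 times as high as Klf2 in the library labelled knockout and 2.98 times as high in wild type. At a threshold of 3-fold Klf4 was no longer counted. Their upstream kinases and MEF2 factors differed little between the libraries. Of 13 measured genes of the MEK5, ERK5, MEF2 and cerebral cavernous malformation (CCM) pathway, 11 lay within 2-fold, beside 9005 of all 13296 genes. The median of these 13 was 0.09, or -0.26 at equal totals. Mef2c was 41.3 FPKM in the library labelled knockout and 38.9 FPKM in wild type, Mef2a 42.6 and 42.0 FPKM, and Map3k3, which encodes MEKK3, 25.9 and 26.3 FPKM. The 2 lower genes were Heg1, the transmembrane partner of the CCM complex, at 6.79 FPKM in the library labelled knockout and 31.6 FPKM in wild type, and Hdac7, a histone deacetylase that represses MEF2, at 4.70 and 13.8 FPKM.

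Genes that KLF2 or KLF4 are known to induce in endothelium were lower. Of 6 such genes 5 were lower and none was higher (median -1.37), beside 2060 lower and 2231 higher of all 13296 genes. At equal totals all 6 were lower (median -1.84), beside 3330 lower of all genes. Nos3, the endothelial nitric oxide synthase, was 1.24 FPKM in the library labelled knockout and 7.75 FPKM in wild type. Thbd, the anticoagulant thrombomodulin, was 9.19 FPKM in the library labelled knockout and 20.1 FPKM in wild type, and S1pr1, a sphingosine 1-phosphate receptor, was 20.1 and 54.4 FPKM. Tek, the angiopoietin receptor and also a pan-endothelial marker, was 11 and 79.5 FPKM, and the pan-endothelial markers as a whole had a lower median, -1.96, in the same library. Of 5 genes that these factors repress, 4 lay within 2-fold and 1 was higher, with a median of 0.04 as deposited and -0.29 at equal totals. Edn1, the vasoconstrictor endothelin, was 13.1 FPKM in the library labelled knockout and 12.7 FPKM in wild type, and Vcam1, a leukocyte adhesion molecule, was 17 and 23.3 FPKM.

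Other KLF genes were mixed. Of 13 measured, 5 were lower, 1 was higher and 7 lay within 2-fold (median -0.46), beside 2060 lower and 2231 higher of all 13296 genes. Klf5, a factor of epithelium and smooth muscle, was 0.632 FPKM in the library labelled knockout and 4.79 FPKM in wild type, and Klf12 was 1.04 and 5.40 FPKM. Klf6, which is abundant in macrophages and endothelium, was 388 FPKM in the library labelled knockout and 229 FPKM in wild type. It made up 71.0% of the summed FPKM of 17 KLF genes in the library labelled knockout and 46.8% in wild type, while Klf4 made up 7.96% and 22.8% and Klf2 4.11% and 7.65%. Shares within a library do not depend on how the libraries are scaled to each other.

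Klf2 and Klf4 also belong to the genes that tissue dissociation induces. A list of 9 other genes of that response, chosen after the values were seen, had 4 higher members, no lower one and a median of 0.99. Of all 13296 genes, 2231 were higher and 2060 lower. Atf3 was 265 FPKM in the library labelled knockout and 36.5 FPKM in wild type, Dusp1 was 148 and 41.9 FPKM, and Fos was 537 and 518 FPKM. These values are as deposited, and the part of this response in the KLF values was not tested. Klf4 is also expressed by keratinocytes and by monocyte-lineage cells, of which keratinocyte markers were lower and macrophage markers higher in the same library. The part of these cells was not tested either.

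The FOXC genes had the lowest levels of the set in the library labelled knockout, and in wild type Nfatc2 was below them. Foxc2, the forkhead factor of valve cells and of collecting vessel maturation, was 0.342 FPKM in the library labelled knockout and 6.16 FPKM in wild type, 18-fold lower and a log2 difference of -2.42. That difference was lower than those of all but 1.56% of the 13296 genes. At the estimated depth the value of Foxc2 rests on about 8 fragments in the library labelled knockout (95% exact Poisson interval 3.45 to 15.8) and 159 in wild type (135 to 186). These intervals cover counting error only. They hold for that depth alone, although its multiples scored alike and any rescaling of the values is unknown. Foxc1, which acts beside Foxc2 in vessel development, was 0.828 FPKM in the library labelled knockout and 5.99 FPKM in wild type, 7.24-fold lower and a log2 difference of -1.94. It rests on about 42 fragments in the library labelled knockout and 346 in wild type. The pair were at nearly equal levels in the wild-type library, with a ratio of Foxc1 to Foxc2 of 0.973, against 2.42 in the library labelled knockout. With a pseudocount of 5, Foxc1 was at -0.92 and no longer counted, and Foxc2 was at -1.06. Foxc1 is also expressed by dermal mesenchyme, and the fibroblast list (median -1.94) and the pericyte and smooth muscle list (median -2.56) were lower in the same library. Their part in the FOXC values was not tested.

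The NFAT factors went apart. Nfatc2 was 13.2 FPKM in the library labelled knockout and 1.78 FPKM in wild type, 7.45-fold higher and a log2 difference of 2.36, above those of 94.6% of all genes. Nfatc1, the family member of endocardial and lymphatic valves, was 15.3 FPKM in the library labelled knockout and 19.2 FPKM in wild type, 1.25-fold lower and a log2 difference of -0.31. The level of Nfatc2 was 0.864 of that of Nfatc1 in the library labelled knockout and 0.0925 in wild type. Nfatc3, a broadly expressed relative, was 15.1 and 14.5 FPKM, and Nfatc4 was 1.27 FPKM in the library labelled knockout and 5.01 FPKM in wild type. The summed level of these 4 genes was 44.9 FPKM in the library labelled knockout and 40.5 FPKM in wild type as deposited, or 84.7 and 97.4 at equal totals. Within that sum Nfatc2 held 29.5% in the library labelled knockout and 4.39% in wild type, Nfatc1 held 34.1% and 47.5%, and Nfatc4 2.82% and 12.4%. The sum thus differed little and in a direction that depends on the scaling, while its make-up shifted to Nfatc2. Nfatc2 is well known from mast cells and lymphocytes. Mast cell markers were higher in 8 of 8 (median 6.75) and macrophage markers in 12 of 12 (median 6.12). Of 8 lymphocyte markers 4 were listed at 0 in the library labelled knockout and 5 in wild type. The remainder summed to 5.43 and 0.979 FPKM. Only 1 lymphocyte marker, Cd79b, reached 1 FPKM. It was higher, at 4.04 FPKM in the library labelled knockout and 0.394 FPKM in wild type. The part of these cells in the NFAT values was not tested.

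**Figure D3:**
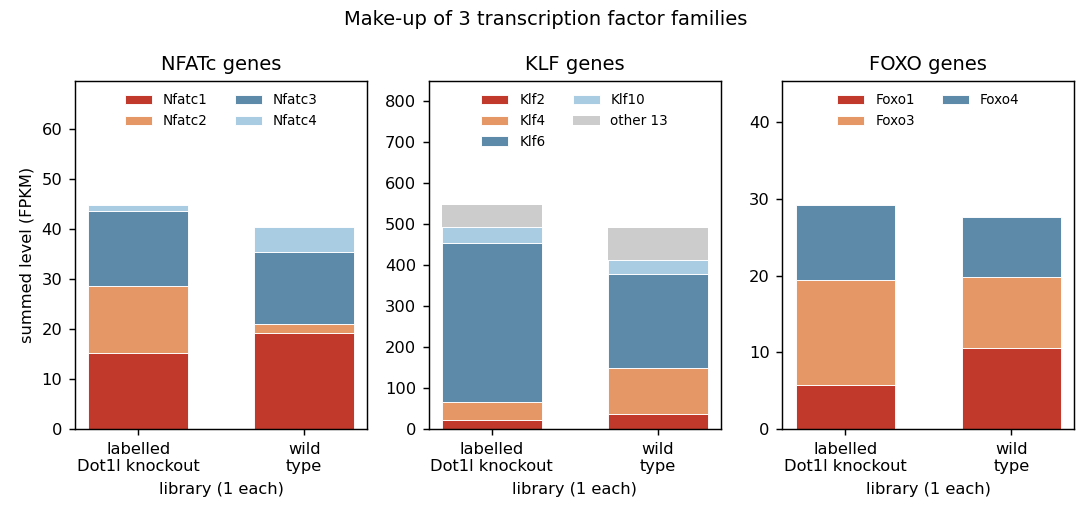
Summed FPKM of the NFATc, KLF and FOXO genes in the library labelled Dot1l knockout (left bar of each panel) and the wild-type library (right bar), split by gene, 1 library each. Nfatc2, Klf6 and Foxo3 take larger parts in the library labelled knockout, and Nfatc1, Klf4 and Foxo1 larger parts in wild type.

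Most genes that carry the calcium signal to NFAT lay within 2-fold, as did most genes measured. Of 14 calcium entry and calcineurin genes 11 did so, beside 9005 of all 13296 genes. In this list 2 were higher and 1 was lower, with a median of 0.16. At equal totals 3 were lower and none was higher, with a median of -0.19. Ppp3ca, a catalytic subunit of calcineurin, was 41.3 FPKM in the library labelled knockout and 73.1 FPKM in wild type, and its regulatory subunit Ppp3r1 was 51.0 and 45.5 FPKM. Stim1, the calcium sensor of the endoplasmic reticulum, was 28.6 FPKM in the library labelled knockout and 13.3 FPKM in wild type, and the calcium release channel Itpr3 was 20.3 and 7.81 FPKM. The single lower gene was Plcg1, a phospholipase downstream of growth factor receptors, at 19.9 and 41.4 FPKM. Among 10 NFAT regulators and relatives 9 lay within 2-fold (median 0.08, or -0.27 rescaled), with Nfatc4 as the exception. Rcan1, a calcineurin inhibitor that is itself an NFAT target, was 45.2 FPKM in the library labelled knockout and 33.1 FPKM in wild type.

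Foxo1 and Foxp1 differed from the FOXC pair. Foxo1 was 5.79 FPKM in the library labelled knockout and 10.6 FPKM in wild type, 1.83-fold lower and a log2 difference of -0.77. Foxp1 was 27.2 FPKM in the library labelled knockout and 27.9 FPKM in wild type, a log2 difference of -0.04 and the smallest of the set. Its sign was negative under 6 of 7 settings and positive relative to the pan-endothelial median. Foxo3, a relative with overlapping function, was 13.6 FPKM in the library labelled knockout and 9.23 FPKM in wild type, so that Foxo1 held 19.8% of the sum of Foxo1, Foxo3 and Foxo4 in the library labelled knockout and 38.4% in wild type. Of 13 other forkhead genes measured, 12 lay within 2-fold, beside 9005 of all 13296 genes, and 1 was lower. Their median was 0.09, or -0.24 at equal totals. The lower one was Foxp2, a relative of Foxp1, at 1.12 FPKM in the library labelled knockout and 8.78 FPKM in wild type.

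Among 8 AKT pathway genes that control FOXO proteins, 6 lay within 2-fold, beside 9005 of all 13296 genes, and 2 were lower (median -0.04). The lower genes included Sgk1, a kinase related to AKT, at 42.5 FPKM in the library labelled knockout and 95 FPKM in wild type. Of 14 known FOXO target genes 10 lay within 2-fold, 3 were higher and 1 was lower, with a median of 0.25. Of all 13296 genes, 9005 lay within 2-fold, 2231 were higher and 2060 lower. At equal totals 2 of the 14 were higher and 3 lower (median -0.04), beside 1900 and 3330 of all genes. The genes named next are given as values of single genes. Gadd45a, a stress-induced growth arrest gene, was 42.2 FPKM in the library labelled knockout and 8.63 FPKM in wild type, Bcl2l11, a pro-apoptotic factor, was 22 and 7.82 FPKM, and the repressor Bcl6 was 5.81 and 2.16 FPKM. The one lower as deposited was Sesn3 at 4.66 and 11.6 FPKM, and Angpt2, an endothelial FOXO1 target, was 40.1 and 45.6 FPKM.

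Downstream of these regulators, the list of genes that build the valve leaflets and their partners had a median of -0.88. Of its 27 genes 13 were lower, 2 were higher and 12 lay within 2-fold, beside 2060 lower and 2231 higher of all 13296 genes. At equal totals 15 were lower and 2 higher, beside 3330 and 1900 of all genes. Cldn11, a claudin of valve cells, was 0.641 FPKM in the library labelled knockout and 20.4 FPKM in wild type. Gja4, which encodes connexin 37 and lies downstream of FOXC2 and flow, was 3.82 FPKM in the library labelled knockout and 45.1 FPKM in wild type, and Gja1, which encodes connexin 43, was 103 and 190 FPKM. The planar polarity and giant cadherin genes Celsr1 (3.09 and 9.12 FPKM), Vangl2 (0.939 and 3.48 FPKM), Fat4 (6.42 and 26.5 FPKM) and Dchs1 (2.90 and 6.98 FPKM) were each lower in the library labelled knockout, named here before wild type. The higher ones were Gata2, a factor of valve cells and of mast cells, at 81.0 and 6.59 FPKM, and Itga9, the integrin of valve matrix assembly, at 61.7 and 20.5 FPKM. Over all 11 pathway lists, which hold 139 measured genes, 27.3% were lower and 8.63% higher, or 38 and 12 genes, to be read against the 2060 and 2231 of all 13296 genes. At equal totals 51 and 9 of the 139 were so called, against 25% lower and 14.3% higher of all genes. Some members are endothelial markers themselves.

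**Figure D4:**
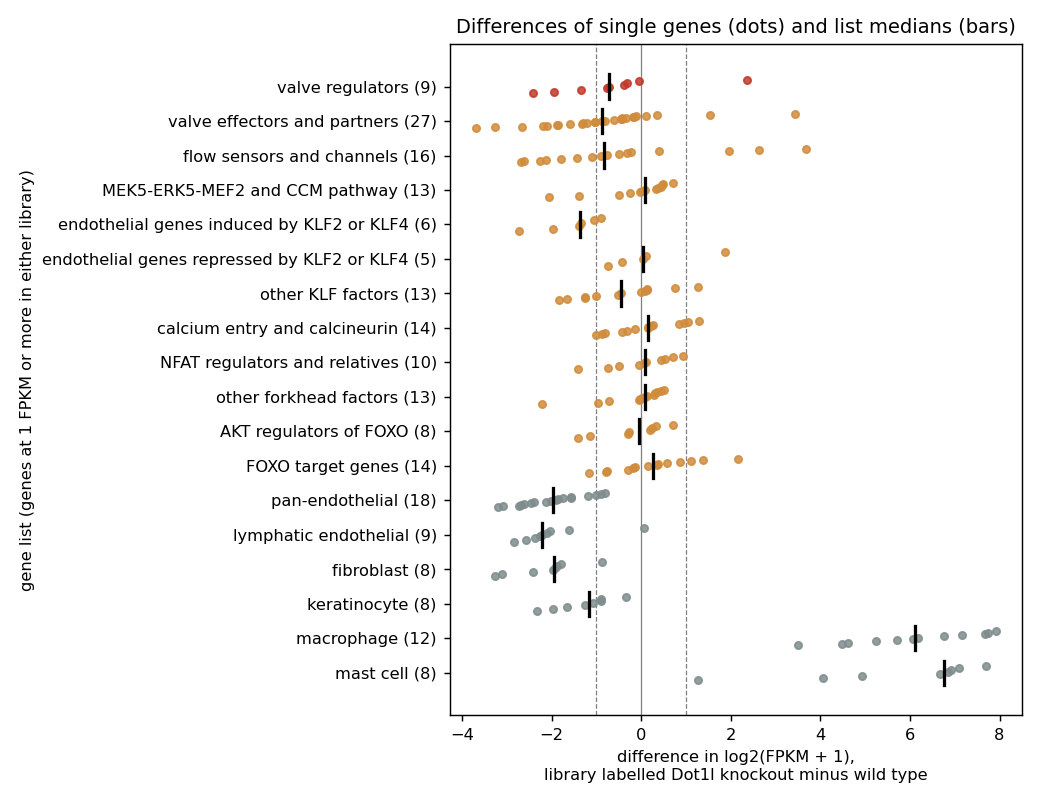
Difference in log2(FPKM + 1), library labelled Dot1l knockout minus wild type, for single genes (dots) and the median (bar) of the valve regulators (red), pathway lists (orange) and cell type markers (grey), with the number of measured genes in parentheses. Dashed lines mark 2-fold; valve effectors and genes induced by KLF2 or KLF4 lie mostly below 0, and macrophage and mast cell markers lie above 0.

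Because endothelial markers as a group were lower, the members were also set against them. The 18 pan-endothelial markers ranged from -3.19 to -0.80 with a median of -1.96. Of the valve regulators, 3 lay within that range, Klf4, Foxc1 and Foxc2, and 6 lay above it. Relative to the marker median Foxc2 was at -0.46, Foxc1 at 0.02, Klf4 at 0.62 and the other members between 1.19 and 4.32. Set against Cdh5 or Prox1, Foxc1 and Foxc2 were both below their wild-type values, by an amount that depended on which was used. Of the 18 markers only Cd34 (9.53-fold lower) and Sox18 (14.4-fold lower) fell by more than Foxc1 (7.24-fold lower). Against those markers Foxc1 would be above its wild-type value. Per 100 FPKM of Cdh5, the cadherin of endothelial junctions, Foxc2 was 0.992 FPKM in the library labelled knockout and 2.72 FPKM in wild type, whereas Foxc1 was 2.40 and 2.65 FPKM. Klf4 was 126 FPKM per 100 FPKM of Cdh5 in the library labelled knockout and 49.2 in wild type, Piezo1 was 42.3 and 8.49, and Nfatc1 was 44.5 and 8.48. Per 100 FPKM of Prox1, the lymphatic fate factor and valve partner of FOXC2, Foxc2 was 2.62 FPKM in the library labelled knockout and 10.4 FPKM in wild type, and Foxc1 was 6.34 and 10.1 FPKM. Under the 7 settings of the log2 difference, Foxc2 was the only member lower in the library labelled knockout in all of them. Nfatc2 was the only one higher in all 7. Foxc1 was set apart from Foxc2 only by its 0.02 relative to the marker median, on a scale that understates the change of low genes. Several members are expressed outside endothelium, and which cells their transcripts came from was not tested.

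**Figure D5:**
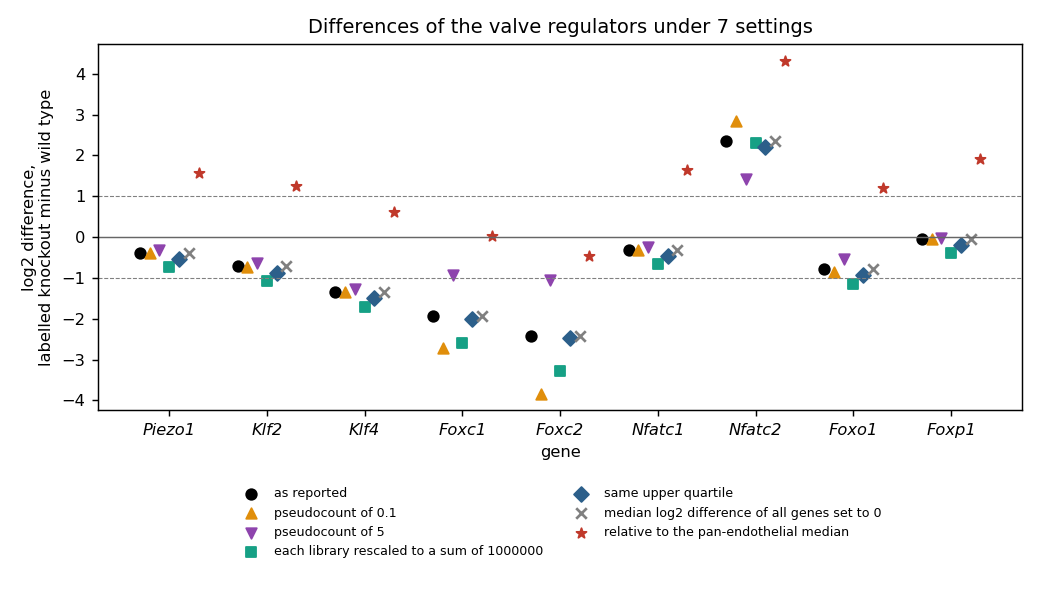
Log2 difference of each valve regulator, library labelled Dot1l knockout minus wild type, as reported (black circle) and under 6 other pseudocounts, scalings or reference points (other symbols), with dashed lines at 2-fold. Relative to the pan-endothelial median (red star) only Foxc2 stays below 0, and Nfatc2 is above 1 in every setting.

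The genes with the most similar pair of levels were sought among 231 genes of the pathway and marker lists, by the Euclidean distance in log2(FPKM + 1) over the 2 libraries. Nearest to Foxc2 was Des, the muscle intermediate filament gene, at a distance of 0.33, with 0.414 FPKM in the library labelled knockout and 7.95 FPKM in wild type. It was followed by Klf5 at 0.42 and Klf12 at 0.63. Nearest to Nfatc2 was Trpv2, at a distance of 0.40, followed by Klf16 at 0.98 and Bcl6 at 1.08.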

How the data were processed

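RNA of skin LECs was sequenced in 2 libraries of pooled RNA (integrity number above 7.0, ScriptSeq v2 kit, per the labels' protocols). The deposited values were read as FPKM: they are decimals, none is negative, and Cuffnorm and Cufflinks 2.2.1 stand in the submitters' processing notes, beside STAR 2.5.2b, R 3.3.2 and build mm9. The sources used here do not give the roles of these tools, the annotation, the use of strand or any scaling between libraries, so reads of overlapping antisense genes cannot be separated. Values added up to 530294 FPKM in the library labelled knockout and 415537 FPKM in wild type, and 7943 and 8138 rows were listed at 0.

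Genes that reached 1 FPKM in a library were kept, 1 FPKM was added before taking log2, and 2-fold was the threshold. There were no replicates, so no test was run. Depth was estimated with Python 3.11.15 from genes with 1 annotated transcript of at least 2500 nt and an assumed fragment length of 200 nt. At the best of 500 steps, 76.0% of 175 values in the library labelled knockout and 83.0% of 159 in wild type, all up to 5 fragments, lay within 0.1 of a whole number. Multiples of these steps scored alike. The fit covers low genes only, and counts were not modelled. Fragments per gene use the longest GENCODE transcript paired with a RefSeq mRNA and are approximate. The procedures were run on simulated data, with changes free of noise, levels above those of the FOXC genes and known lengths. That shows only that the code runs as meant, and it does not bear on the calls or the depth given here. The members and lists were chosen with earlier results of these data known. Named genes are Dot1l, the 9 members, members of the lists with the largest and smallest differences, markers, and the 3 list genes nearest to Foxc2 and to Nfatc2. Other list members that are named illustrate a step of the pathway and were chosen after their values were seen. Most list genes are given by counts only. Alternatives were other pseudocounts, scalings, minimums and thresholds.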

Additional observations from a re-analysis of the deposited data

How the results depend on the processing

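No paired analysis was possible because the design holds a single library of each genotype, which also leaves no replicate to drop. The 3 members counted as lower (Klf4, Foxc1 and Foxc2) became 5 at equal totals and 5 at 1.5-fold, each time with Klf2 and Foxo1 added, and 0 relative to the pan-endothelial median. The 1 member counted as higher became 6 in that last setting. The median difference of the members, -0.71, was -0.73 with a pseudocount of 0.1, -0.53 with a pseudocount of 5, -1.07 with the sums rescaled, -0.87 with the same upper quartile, and 1.25 relative to the pan-endothelial median, where 7 of the 8 members below 0 changed sign: Foxc1 (0.02), Klf4 (0.62), Foxo1 (1.19), Klf2 (1.25), Piezo1 (1.58), Nfatc1 (1.65) and Foxp1 (1.92). That reversal follows from subtracting a median of -1.96. The upper quartile scaling moved the median of all genes to -0.15.

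The 2060 genes at least 2-fold lower became 3330 with the sums rescaled, 3450 at 1.5-fold, 906 at 3-fold, 921 with a pseudocount of 5 and 67 relative to the pan-endothelial median. The 2231 higher genes numbered 3464 at 1.5-fold, 1298 at 3-fold, 1323 with a pseudocount of 5 and 11134 relative to the pan-endothelial median. Of the pathway genes, the 38 lower numbered 21 when 5 was the pseudocount, 18 at 3-fold and 2 relative to the pan-endothelial median, and the 12 higher became 7, 6 and 100 in those settings and 20 at 1.5-fold. Depth limits Foxc2 most, at about 8 fragments in the library labelled knockout at the estimated depth.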

Other observations

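The other members with upstream windows in the RefSeq promoter table of build GRCm38.p6 differed in the same motif letters. Foxp1 has 3 windows, of which the first and the second held 3 forkhead cores each and the third held 1. The window of Foxo1 held 1 forkhead core and 1 NFAT core, and that of Piezo1 held 1 KLF core and neither of the others. Of the 10 windows of 7 members, the MEF2 site was found in that of Klf2 alone. The GC content of these windows was 74.0% for Piezo1, Klf4 and the third Foxp1 window and 45.2% for the second Foxp1 window.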
